A study of Mus musculus with 64 samples.

Results

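Histone genes were taken from RNA sequencing of mouse colon as the rows whose names start with the symbols of linker histones (H1f), core histones (H2ac, H2bc, H3c, H4c) or histone variants (H2ax, H2az, H2aj, H2bu, H3f, H4f, Macroh2a), without names holding "-ps". Of 35534 genes in each table, 89 matched the name pattern, 6 of these were left out, and 83 remained. They were 11 linker, 61 core and 11 variant histone genes. The tissue was whole colon of wild type (WT) Swiss Webster mice, an outbred strain, aged 8 to 12 weeks and kept in 12 h of light and 12 h of dark. The mice came from a specific pathogen free (SPF) colony or a germ-free one (GF), and each mouse received intraperitoneal vancomycin, an antibiotic, or PBS. Vancomycin was given as 2.5 mg in 100 µl of PBS and the control as 100 µl of PBS, with 2 injections a day for 3 days and a last one on day 4. GF mice were kept in ISOcages, outside their isolators, during treatment. Colon was collected at zeitgeber time (ZT, hours after lights on) 5, 11, 17 or 23, which with 2 colonies and 2 treatments made 16 groups of 4 libraries. The series asks which effects of the antibiotic do not need the microbiota.

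Histones package DNA into nucleosomes: pairs of H2A, H2B, H3 and H4 form the core particle, and a linker histone H1 binds where DNA enters and leaves it. Most core histone genes and the linker genes H1f1 to H1f5 lie in clusters, are transcribed when DNA is replicated, and end in a stem-loop in place of a poly(A) tail. Most variant genes, and linker genes such as H1f0, are transcribed outside S phase as well and carry ordinary poly(A) tails. In the colon, dividing cells sit in the lower crypt, and differentiated epithelial cells are replaced every few days. The libraries were made from poly(A)-selected RNA, so replication-dependent transcripts were seen only as far as they carried a tail or escaped the selection. Values of core genes and of H1f1 to H1f5 therefore describe the captured fraction, and the total amount of these transcripts was not measured.

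Library totals ran from 10044000 to 13615900 estimated counts in SPF and from 10514000 to 15736100 in GF colon, and the 83 genes together made up 0.228% to 0.327% and 0.198% to 0.278% of them. In both tables alike, 51 histone genes had at least 10 counts in at least 4 libraries and were tested: 5 linker, 37 core and 9 variant. H2ac12 and H4c2 passed in 1 table each, so 50 could be compared between tables. Another 31 genes passed in neither, among them the linker genes H1f1, H1f5 and H1f6 to H1f9, 15 H2A or H2B genes, 6 H3c genes, H4c1, H4c6, H3f4 and Macroh2a3, and H1f7 was at 0 in every library. Levels are given as CPM, the counts of a gene scaled to a common library size, within each table and with edgeR's TMM factors. The colonies were deposited as separate tables, so SPF and GF levels are set side by side and were not tested against each other. CPM values are not corrected for transcript length, and no gene is ranked above another by them. Nothing in the labels says that the 4 libraries of a group came from separate mice, so p-values speak to the spread among libraries, which may be technical.

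Summed over their genes, the classes behaved differently in the SPF table. The 11 linker genes together gave 776 ± 133 CPM (SD, n = 16) under PBS and 555 ± 116 CPM (SD, n = 16) under vancomycin. H1f0 and H1f2 made up most of this sum, with means of 407 and 348 CPM under PBS. In GF libraries the linker sum was 494 ± 85.7 CPM (SD, n = 16) under PBS and 513 ± 46.7 CPM (SD, n = 16) under vancomycin. The SPF linker mean was lower under vancomycin at each time, at ZT5 540 ± 139 CPM (SD, n = 4) against 928 ± 140 CPM (SD, n = 4) and at ZT11 615 ± 145 CPM (SD, n = 4) against 690 ± 104 CPM (SD, n = 4). The groups did not overlap at ZT5 or ZT23, and they overlapped at ZT11 and ZT17. The 61 core genes together gave 404 ± 52.8 and 383 ± 57.9 CPM (SD, n = 16) in SPF libraries with PBS and vancomycin, and 368 ± 49.8 and 368 ± 47.8 CPM (SD, n = 16) in GF libraries. Most of the SPF core sum came from H2ac genes, with means of 167 and 173 CPM (PBS first), and H2bc genes, with 169 and 153 CPM. The smaller H3c and H4c sums were 28.2 and 23.6 CPM, and 40.0 and 34.0 CPM. The 11 variant genes gave 1653 ± 119 and 1627 ± 118 CPM (SD, n = 16) in SPF and 1453 ± 135 and 1420 ± 111 CPM (SD, n = 16) in GF libraries. The sums are descriptions without a test.

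**Figure D1:**
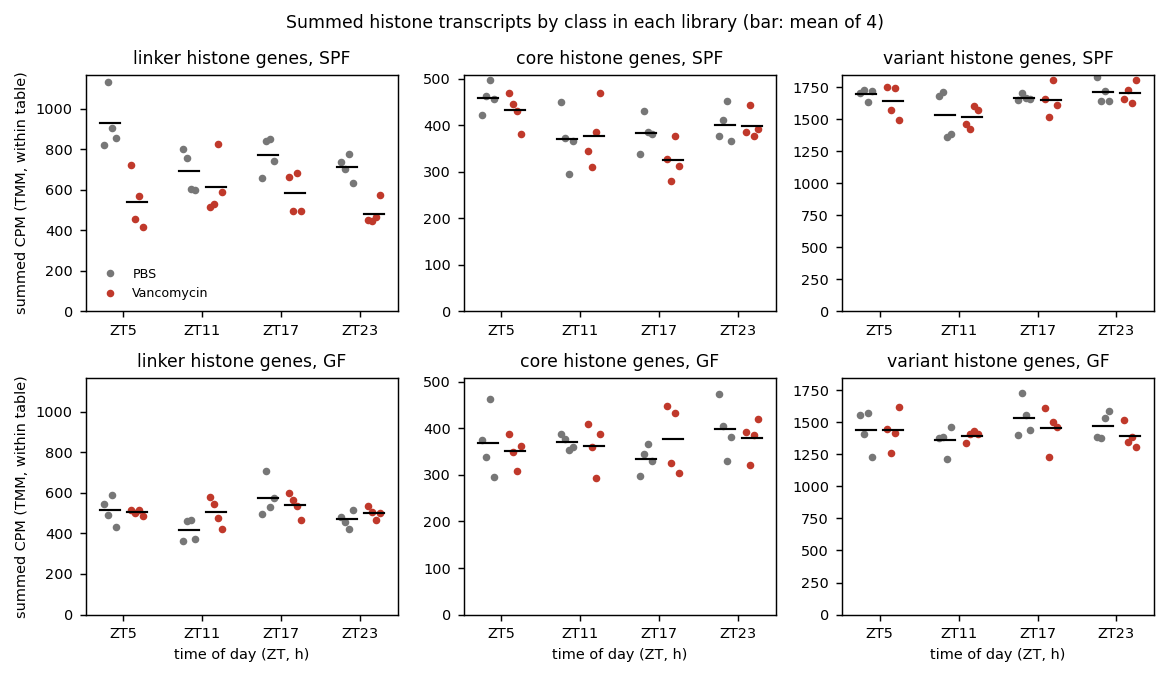
Summed CPM of linker, core and variant histone genes in each library (points; 4 per group) against time of day, with group means as bars, SPF above and GF below. The SPF linker panel is the one in which vancomycin libraries sit low, with a mean of 555 CPM against 776 CPM under PBS.

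Linker histone genes fell in SPF colon under vancomycin. H1f0, H1f2, H1f3 and H1f4, 4 of the 5 linker genes tested, passed the test as lower, against 0.809% of 16938 genes called in all and 0.431% called as lower, and the remaining linker gene, H1f10, did not. H1f2 (ENSMUSG00000036181), a main somatic H1, ranged from 226 to 603 CPM with a median of 348 in the 16 PBS libraries, and from 178 to 346 CPM with a median of 218 in the 16 vancomycin libraries. All 16 vancomycin libraries lay under the PBS median and 9 lay under the lowest PBS library. The mean log2 change over the 4 times was -0.53 ± 0.11 (SE), with an edgeR adjusted p of 0.0190. H1f0 (ENSMUSG00000096210), the linker histone known from non-dividing and differentiated cells, ranged from 330.5 to 511 CPM with a median of 403 under PBS and from 210.1 to 504 CPM with a median of 294.5 under vancomycin. Of its 16 vancomycin libraries, 11 lay under the lowest PBS library, while replicate 3 at ZT11 reached 504 CPM, inside the PBS range. Its log2 change was -0.42 ± 0.08 (SE), with an edgeR adjusted p of 0.0190.

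H1f3 (ENSMUSG00000052565) and H1f4 (ENSMUSG00000051627), both replication-dependent H1 genes, had low counts and larger log2 changes. H1f3 lay between 3.13 and 15.5 CPM, median 8.38, under PBS and between 1.18 and 9.81 CPM, median 4.08, under vancomycin. It fell by 0.94 ± 0.19 (SE) on the log2 scale, with an edgeR adjusted p of 0.0190. H1f4 lay between 2.37 and 13.9 CPM, median 5.10, under PBS and between 1.23 and 6.67 CPM, median 2.79, under vancomycin. It fell by 0.93 ± 0.19 (SE), with an edgeR adjusted p of 0.0222. The ranges of both genes overlapped between treatments, with 15 of 16 vancomycin libraries under the PBS median for H1f3 and 14 of 16 for H1f4. H1f10, a linker variant coded outside the clusters, had 5.82 ± 1.71 CPM (SD, n = 16) under PBS and 5.34 ± 1.93 CPM (SD, n = 16) under vancomycin, a log2 difference of -0.14 ± 0.13 (SE) with an edgeR adjusted p of 0.620.

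**Figure D2:**
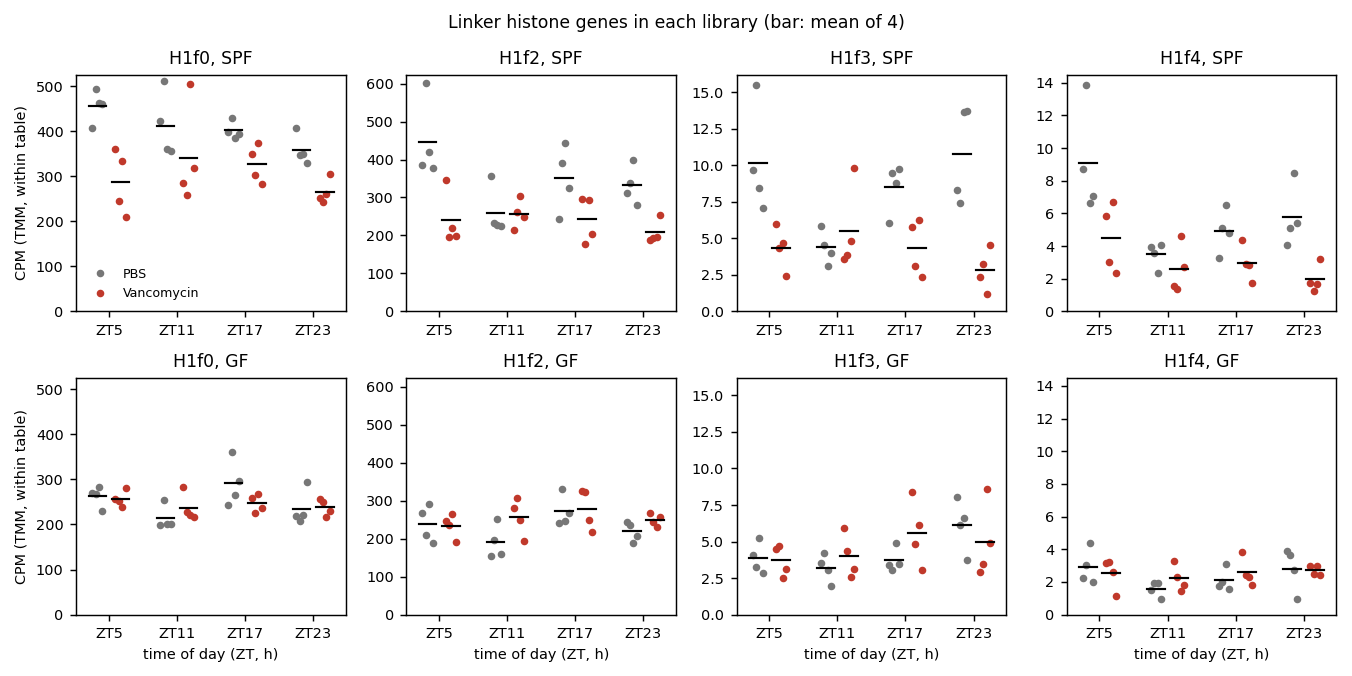
CPM of H1f0, H1f2, H1f3 and H1f4 in each library (points; 4 per group) against time of day, with group means as bars, SPF above and GF below on the same scale for a gene. Vancomycin libraries lie below all PBS libraries for H1f2 at ZT5 and ZT23 in SPF, and the 2 treatments overlap in GF.

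The bases just before the starts of these genes are shown because linker genes of 2 kinds fell together: H1f0, and the replication-dependent H1f2, H1f3 and H1f4. The windows of H1f2, H1f3 and H1f4 hold the H1 box, a motif known from H1 genes. Sequences are RefSeq's for build GRCm38.p6, another build than the GRCm39 named in the submitters' processing notes, and 71 of the 83 members had an entry under their symbol. Each run holds the 150 bases before the annotated start, 5′ to 3′ on the gene's strand. Capitals mark every match to 4 motifs on either strand: the H1 box AAACACA, the CCAAT box, the TATA box with letters TATAAA and the H2B octamer ATTTGCAT. A match on the opposite strand appears as the reverse complement, such as ATTGG for the CCAAT box. H1f0 lies at chr15:79028062-79028211 on the plus strand, H1f2 at chr13:23738657-23738806 on the plus strand, H1f3 at chr13:23554882-23555031 on the plus strand and H1f4 at chr13:23622559-23622708 on the minus strand. The called H4 genes H4c4 and H4c18 follow at chr13:23581418-23581567 on the plus strand and chr13:21832198-21832347 on the minus strand. The called H2B gene H2bc6 has 2 entries, and neither is printed. Both hold CCAAT boxes, and entry 2 holds an octamer that begins 67 bases before the start.
H1f0: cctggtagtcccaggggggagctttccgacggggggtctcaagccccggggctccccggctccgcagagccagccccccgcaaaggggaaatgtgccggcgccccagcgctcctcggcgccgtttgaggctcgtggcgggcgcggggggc
H1f2: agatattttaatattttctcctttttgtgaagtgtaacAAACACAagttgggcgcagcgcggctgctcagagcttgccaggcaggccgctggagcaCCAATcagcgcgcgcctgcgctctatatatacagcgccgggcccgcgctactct
H1f3: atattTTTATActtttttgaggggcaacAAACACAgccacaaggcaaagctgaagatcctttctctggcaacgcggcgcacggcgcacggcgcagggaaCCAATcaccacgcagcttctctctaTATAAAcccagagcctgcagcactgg
H1f4: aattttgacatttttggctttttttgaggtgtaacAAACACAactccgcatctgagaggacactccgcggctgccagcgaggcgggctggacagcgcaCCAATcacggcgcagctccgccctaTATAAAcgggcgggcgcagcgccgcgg
H4c4: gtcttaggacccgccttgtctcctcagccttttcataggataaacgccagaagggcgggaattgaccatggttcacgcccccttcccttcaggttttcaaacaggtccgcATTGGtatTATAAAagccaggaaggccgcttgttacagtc
H4c18: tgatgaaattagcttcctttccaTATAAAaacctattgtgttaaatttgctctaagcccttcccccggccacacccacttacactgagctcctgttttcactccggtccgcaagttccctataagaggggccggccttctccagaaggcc

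In H1f2, H1f3 and H1f4 the H1 box began 112, 122 and 115 bases before the start and CCAAT 54, 51 and 52 bases before it. TATAAA began 26 bases before the start of H1f3 and 27 before that of H1f4, and these letters were not found in the window of H1f2. None of the 4 motifs matched in the 250 bases before the start of H1f0, and bases farther upstream were not searched. Over the 250 bases before the start, the H1 box letters were found in 5 of 10 linker promoters, 4 of 53 core promoters and 1 of 9 variant promoters, against 6.25% of 32851 promoters in the table. CCAAT was found in 7 linker, 43 core and 6 variant promoters, against 33.8% of all, and TATAAA in 4, 24 and 1, against 12.4% of all. The octamer was found in 0 linker, 13 core and 1 variant promoters, against 1.60% of all. No match overlapped another in the runs shown. These are letter matches, and no binding was measured.

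Of 37 core histone genes tested in SPF colon, 3 fell under vancomycin, each with low counts. H4c4 (ENSMUSG00000061482) and H4c18 (ENSMUSG00000069305) both code for histone H4. H4c4 ranged from 0.676 to 3.03 CPM, median 1.41, under PBS and from 0.331 to 1.59 CPM, median 0.747, under vancomycin. Its log2 change was -0.89 ± 0.19 (SE), with an edgeR adjusted p of 0.0287. H4c18 ranged from 2.96 to 8.53 CPM, median 5.00, under PBS and from 1.14 to 5.37 CPM, median 2.82, under vancomycin. Its log2 change was -0.85 ± 0.20 (SE), with an edgeR adjusted p of 0.0347. H2bc6 (ENSMUSG00000047246), an H2B gene, ranged from 3.54 to 13.3 CPM, median 6.58, under PBS and from 2.11 to 7.10 CPM, median 4.61, under vancomycin, a log2 change of -0.60 ± 0.14 (SE) with an edgeR adjusted p of 0.0420. For H4c4 and H4c18, 15 of 16 vancomycin libraries lay under the PBS median, and for H2bc6 14 of 16 did. Core genes of a family differ by few bases, and the sources used here do not give how shared reads were assigned or whether strand was used, so values of single core genes are uncertain.

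The 5 core genes named for their mean CPM, a choice for precision and not an order of expression, were not called. H2bc4 had 126 ± 22.3 CPM under PBS and 117 ± 23.7 CPM under vancomycin (SD, n = 16 each). H2ac24 had 66.9 ± 25.4 and 69.9 ± 28.3 CPM, H2ac19 42.1 ± 11.2 and 46.4 ± 9.95 CPM, and H2ac25 37.8 ± 10.5 and 37.1 ± 11.4 CPM (SD, n = 16 each, PBS first). These treatment differences were smaller than the SD within a treatment. H3c14 had 17.3 ± 3.35 CPM under PBS and 14.8 ± 2.41 CPM under vancomycin (SD, n = 16 each), a log2 difference of -0.21 ± 0.07 (SE) with an edgeR adjusted p of 0.161.

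None of the 9 variant genes tested passed. H3f3a and H3f3b both code for the replacement histone H3.3, which is laid down outside replication. H3f3b had 653 ± 77.0 CPM under PBS and 632 ± 53.3 CPM under vancomycin (SD, n = 16 each), and H3f3a 343 ± 28.5 and 326 ± 41.1 CPM. H2az1, which codes for H2A.Z, a variant placed around transcription starts, had 149.5 ± 19.4 and 141 ± 23.2 CPM. Macroh2a1, an H2A variant with a large extra domain, had 128 ± 13.3 CPM under PBS and 132 ± 10.9 CPM, and H2aj, another H2A variant, 232 ± 32.03 and 244 ± 43.0 CPM. The log2 differences of the 9 variants ran from -0.21 to 0.17.

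For vancomycin in SPF colon 7 of the 51 histone genes were called, all as lower, where over all genes 0.809% were called, 0.431% as lower and 0.378% as higher. By class, 4 of 5 linker, 3 of 37 core and 0 of 9 variant genes were called. Estimates were negative for 5 of 5 linker genes (median -0.53), 31 of 37 core genes (median -0.34) and 5 of 9 variant genes (median -0.01). Over all genes tested 51.2% were negative and the median was -0.004. At an unadjusted p under 0.05 stood 15 of the 51 histone genes, 11 of them core, against 16.2% of all genes.

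**Figure D3:**
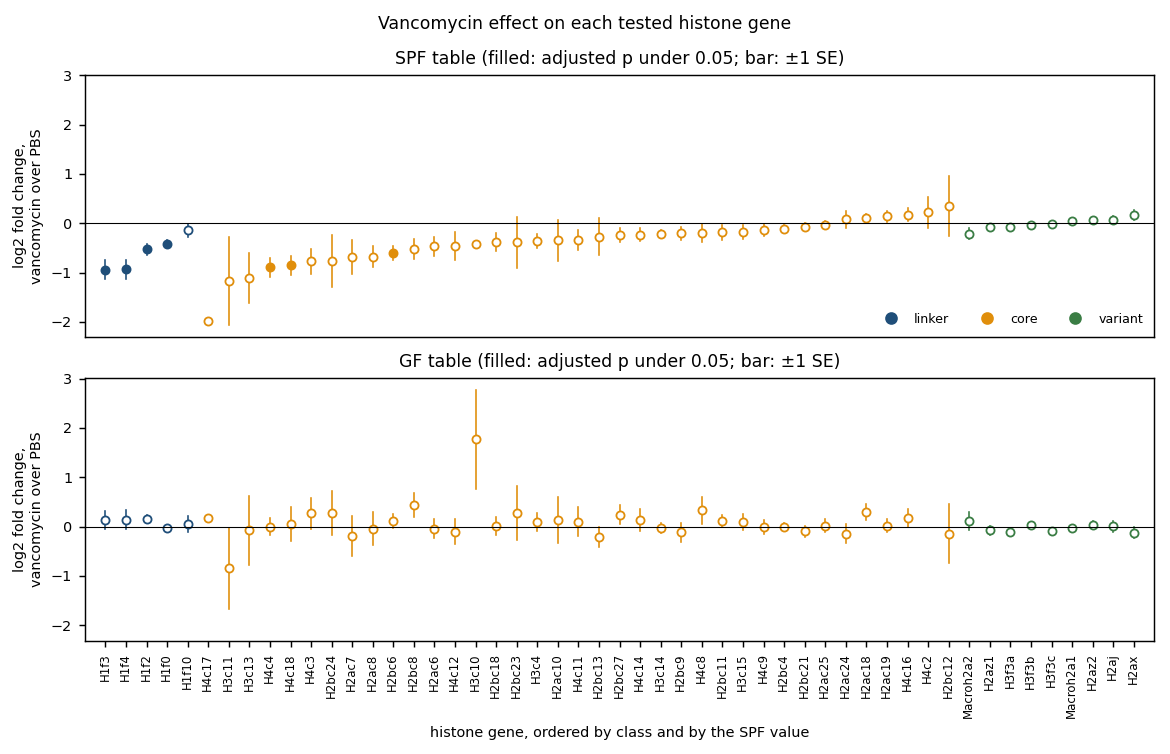
Log2 fold change of vancomycin over PBS, averaged over 4 times, for each tested histone gene, with bars of ±1 SE (no bar where the SE exceeds 3) and filled points for an adjusted p under 0.05; SPF above, GF below. In SPF the 7 filled points are 4 linker and 3 core genes, all below 0, and no point is filled in GF.

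Markers of the tissue's cell types also differed between treatments in SPF colon. Krt18, a keratin of simple epithelium, had 401 ± 61.6 CPM under PBS and 289 ± 76.3 CPM under vancomycin (SD, n = 16 each), and it fell by 0.48 ± 0.10 (SE) on the log2 scale with an edgeR adjusted p of 0.0190. Of the 10 epithelial markers 8 had negative estimates and only Krt18 was called, and their sum ran from 8305 to 15625 CPM under PBS and from 8244 to 13802 CPM under vancomycin. All 10 T and NK cell markers had positive estimates, Cd3d rose by 1.92 ± 0.46 (SE) with an edgeR adjusted p of 0.0428, and their sum ran from 10.8 to 349 CPM under PBS and from 15.3 to 541 CPM under vancomycin. All 12 B cell markers had positive estimates, with a median of 0.76, and 0 were called or stood at an unadjusted p under 0.05. All 6 adipose markers had negative estimates, with a median of -1.36, and 0 were called, with 2 at an unadjusted p under 0.05. Axin2, a Wnt target of crypt cells and 1 of 6 crypt markers, fell by 0.31 ± 0.08 (SE; edgeR adjusted p 0.0432). The sum of the 6 crypt markers overlapped, from 133 to 213 CPM under PBS and from 118 to 298 CPM under vancomycin. Smooth muscle markers had negative estimates in 8 of 8, enteric neuron and glia markers in 7 of 8 and fibroblast markers in 5 of 6, of which 3, 4 and 2 reached an unadjusted p under 0.05 and 0 were called. The sums of these 3 lists overlapped between treatments. No marker of these lists was at 0 in all libraries. In whole tissue, fewer cells of a type and less RNA per cell cannot be told apart.

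Calls were lost when these measures were added or times left out, while every estimate of the 7 genes stayed negative. With the mean of the 10 epithelial markers as a covariate, 0 of the 7 genes stayed called, with H1f0 at -0.33 ± 0.08 (SE; adjusted p 0.124), H1f2 at -0.36 ± 0.10 (adjusted p 0.167), H1f3 at -0.88 ± 0.21 (adjusted p 0.118) and H1f4 at -0.75 ± 0.20 (adjusted p 0.134) by edgeR. In that fit 13 genes in all were called. With the T and NK cell markers as a covariate 2 stayed called, H1f3 and H4c4, of 47 genes in all. The others had estimates of -0.37 ± 0.09 (H1f0), -0.47 ± 0.11 (H1f2), -0.87 ± 0.21 (H1f4), -0.94 ± 0.22 (H4c18) and -0.62 ± 0.16 (H2bc6; SE), with edgeR adjusted p-values from 0.0564 to 0.0847. What these cells contribute to the histone values was not tested further. Without the ZT5 libraries 0 of the 7 were called (8 genes in all), with H1f2 at -0.34 ± 0.11 and H1f0 at -0.33 ± 0.10 (SE). Without ZT23 only H1f0 stayed called, and without ZT17 H1f0, H1f2, H1f4 and H4c4 did. H1f0, H1f2, H1f3 and H1f4 kept their call in all 32 fits that left out 1 library, H4c4 in 29 (not without replicate 1 of PBS at ZT11, or replicate 4 at ZT5 or replicate 1 at ZT23 of vancomycin), H4c18 in 16 and H2bc6 in 12.

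In GF colon no histone gene was called for vancomycin. Of 16951 genes 0% passed the edgeR test, and 0 of the 51 histone genes stood at an unadjusted p under 0.05, against 3.96% of all. DESeq2 called 5 genes and 0 histone genes. H1f2 had 230.3 ± 47.98 CPM under PBS and 255 ± 39.6 CPM under vancomycin (SD, n = 16 each), a log2 difference of 0.16 ± 0.09 (SE). H1f0 had 251 ± 44.6 and 245 ± 21.2 CPM (SD, n = 16 each), a difference of -0.02 ± 0.06 (SE). H1f3 and H1f4 differed by 0.14 ± 0.18 and 0.14 ± 0.19 (SE), H4c4 by 0.00 ± 0.18 and H2bc6 by 0.12 ± 0.15 (SE). The ranges overlapped between treatments for each of these genes. B cell markers in GF summed to a median of 331 CPM under PBS and 56.2 CPM under vancomycin, with overlapping ranges. Epithelial markers summed to 13207 and 12112 CPM. With B cell markers as a covariate 0 genes were called for vancomycin in GF. Summed Y-linked transcripts ran from 17.04 to 269 CPM (median 73.4) in GF vancomycin and from 53.9 to 301 CPM (median 227) in GF PBS libraries. Their sum in SPF libraries ran from 213 to 281 CPM under PBS and from 216 to 276 CPM under vancomycin. With Y-linked transcripts as a covariate in GF libraries, 0 histone genes and 0 genes in all were called for vancomycin. In the same setting 2 histone genes were called for time of day and 2 for the slope on Mki67, both described below. What else these transcripts share with the histone values was not tested.

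Whether vancomycin acted differently in the colonies was tested directly, since a call in 1 colony alone does not show one. By edgeR it was called for 0% of 16604 genes and for 0 of 50 histone genes. At an unadjusted p under 0.05 stood 11 of the 50, against 9.94% of all genes. H1f2 had the smallest p of all genes tested, with a difference of -0.69 ± 0.14 (SE) and an adjusted p of 0.165. H1f3 followed at rank 7 with -1.08 ± 0.26 (SE), H1f4 at rank 13 with -1.08 ± 0.27 (SE) and H1f0 at rank 24 with -0.40 ± 0.11 (SE), each with an adjusted p of 0.229. H2bc6 stood at rank 60 with -0.72 ± 0.20 (SE). DESeq2 called 16 genes, with H1f2 (adjusted p 0.00489) and H1f3 (adjusted p 0.0419) among them. With distal Hox genes, which track the position along the colon, as a covariate, edgeR called 7 genes, H1f2 among them (adjusted p 0.0391). With RLE factors in place of TMM, or without the count filter, edgeR called 0 genes in all. It also called 0 with a replicate block and with B cell markers as a covariate. Of 64 edgeR fits that left out 1 library, 62 called 0 histone genes. The exceptions called H1f2, with an adjusted p of 0.0186 without replicate 1 of SPF vancomycin at ZT5 and 0.0494 without replicate 3 of GF PBS at ZT11.

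At single times no histone gene was called in SPF colon by edgeR, against 0.0827% of all genes at ZT5 (0.0649% lower, 0.0177% higher), 0% at ZT11, 0.319% at ZT17 and 0% at ZT23. Unadjusted p-values under 0.05 were reached by 12, 6, 7 and 9 of the 51 histone genes, against 14.2%, 9.86%, 8.65% and 7.34% of all genes. DESeq2 called 240 genes at ZT5, H1f0 and H1f2 among them, and 42 genes at ZT23, H1f3 and H1f4 among them. At ZT5, H1f2 had 386, 603, 419 and 377 CPM under PBS and 346, 196, 221 and 198 CPM under vancomycin, a log2 difference of -0.90 ± 0.22 (SE). At ZT23 it had 312, 338, 399 and 280 CPM against 188, 193, 197 and 255 CPM, a difference of -0.67 ± 0.22 (SE). At both times the 4 vancomycin libraries lay below the 4 PBS libraries. At ZT11 it had 358, 232, 227 and 226 CPM against 214, 261, 304 and 249 CPM, with a difference of -0.01 ± 0.21 (SE) and overlapping groups.

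H1f3 showed its widest gap at ZT23, with 8.31, 7.42, 13.6 and 13.7 CPM under PBS and 2.32, 3.24, 1.18 and 4.54 CPM under vancomycin, a log2 difference of -1.93 ± 0.39 (SE) and an edgeR adjusted p of 0.125. At ZT11 its 4 PBS libraries had 5.83, 4.56, 3.13 and 3.98 CPM and its vancomycin libraries 3.56, 3.85, 4.84 and 9.81 CPM. The ZT11 groups overlapped and the ZT23 groups did not. For H1f0 the groups did not overlap at ZT5, ZT17 and ZT23. At ZT5 all 4 vancomycin libraries lay below all 4 PBS libraries for 8 of the 51 histone genes, against 4.52% of all genes. The same was seen for 1 at ZT11 (1.80% of all), 2 at ZT17 (3.10%) and 7 at ZT23 (2.91%). Those at ZT5 were H1f0, H1f2, H1f3, H2bc6, H2bc8, H4c4, H4c11 and Macroh2a2, and those at ZT23 were H1f0, H1f2, H1f3, H1f4, H4c4, H4c8 and H4c18, named after their values were seen. All 4 lay above for 0, 1, 0 and 0 of the 51 histone genes at ZT5, ZT11, ZT17 and ZT23, against 698, 219, 471 and 342 of all 16938 genes.

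Whether the vancomycin effect differed with time was tested in 1 model. No histone gene was called for it in SPF by edgeR, against 0.360% of all genes, with 4 of 51 at an unadjusted p under 0.05 (9.79% of all genes). DESeq2 called 205 genes, H1f3 among them (adjusted p 0.0401). In GF colon 0 were called for the interaction (0% of all genes), with 1 of 51 at an unadjusted p under 0.05 (8.29% of all genes) and 0 by DESeq2. At single times in GF colon 0 histone genes were called by edgeR or DESeq2, and 3, 1, 5 and 0 of 51 stood at an unadjusted p under 0.05 at ZT5, ZT11, ZT17 and ZT23, against 3.58%, 4.91%, 4.47% and 12.1% of all genes.

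Histone transcripts also varied over the day. In SPF libraries of both treatments 10 of 51 histone genes changed with time, against 21.1% of all genes, and 19 stood at an unadjusted p under 0.05, against 34.4% of all. Both shares were near those of all genes. H2ac25 had the smallest p of the 51. It was lowest at ZT11, at 24.3 ± 3.30 CPM (SD, n = 8), and had 37.4 ± 5.09 CPM at ZT5, 39.1 ± 8.98 CPM at ZT17 and 49.0 ± 6.34 CPM at ZT23, with an edgeR adjusted p of 1.0e-05. The ZT11 libraries, at 19.4 to 30.05 CPM, lay below every ZT23 library, at 41.3 to 59.4 CPM. Macroh2a2 was highest at ZT11, at 7.72 ± 1.74 CPM against 4.83 ± 0.95 CPM at ZT23 (SD, n = 8 each; adjusted p 0.00643), and H1f10 also at ZT11, at 7.58 ± 2.00 CPM against 4.62 ± 0.98 CPM at ZT23 (adjusted p 0.00771). H2bc4 had 137 ± 16.4 CPM at ZT5 and 136 ± 14.9 CPM at ZT23, against 109 ± 20.9 CPM at ZT11 and 103 ± 18.7 CPM at ZT17 (SD, n = 8 each; adjusted p 0.00736).

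H1f4 had 6.78 ± 3.56 CPM at ZT5 and 3.03 to 3.94 CPM on average at the other times, with an edgeR adjusted p of 0.0124. H3f3a, H3f3b, H2bc11, H2ac24 and H2bc27 were the other genes called, with adjusted p-values from 0.0263 to 0.0495. Smooth muscle and distal Hox transcripts moved over the same times. All 8 smooth muscle markers changed with time, and their sum averaged 16823 ± 5244 CPM at ZT11 and 6621 ± 1567 CPM at ZT23 (SD, n = 8 each). Distal Hox genes summed to 281 ± 81.9 CPM at ZT11 and 504 ± 87.5 CPM at ZT23. With the smooth muscle markers as a covariate 5 of the 10 stayed called, H1f4, H2ac24, H2ac25, H2bc4 and H3f3a, of 833 genes in all. With distal Hox genes as a covariate H1f4, H2ac24, H2ac25 and H2bc4 did. H2ac25, H2bc4, H1f4, H1f10 and Macroh2a2 kept their call in all 32 fits that left out 1 library, and H2bc27 in 8. H3f3b lost it without replicate 3 or 4 of PBS or replicate 1 or 2 of vancomycin at ZT11, H3f3a without replicate 3 of vancomycin at ZT5, H2ac24 without that library or replicate 3 of vancomycin at ZT23, and H2bc11 without replicate 4 of PBS at ZT17 or replicate 1 of vancomycin at ZT5.

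In GF libraries 2 histone genes changed with time, both coding for H2A, against 0.991% of all genes, and they went opposite ways. At an unadjusted p under 0.05 stood 18 of 51 histone genes, 35.3%, against 15.7% of all genes. H2ac24 had 50.6 ± 21.9 CPM at ZT5 and 53.3 ± 21.2 CPM at ZT11, and 18.6 ± 9.07 CPM at ZT17 and 18.2 ± 4.06 CPM at ZT23 (SD, n = 8 each; edgeR adjusted p 7.0e-04). Its 16 libraries of ZT5 and ZT11 ran from 25.7 to 94.6 CPM, and those of ZT17 and ZT23 from 7.97 to 35.2 CPM. H2ac18 had 8.602 ± 1.95 CPM at ZT5 and 8.16 ± 2.83 CPM at ZT11, and 20.95 ± 10.04 CPM at ZT17 and 16.6 ± 3.22 CPM at ZT23 (adjusted p 0.00120). All 16 of its libraries at ZT17 and ZT23, from 11.9 to 42.3 CPM, lay above the highest ZT5 and ZT11 library, at 11.7 CPM. Both kept their call in all 32 fits that left out 1 library. Library names run in the order ZT17, ZT23, ZT5, ZT11, so this split falls together with library order, which was not tested. Totals ran from 10514000 to 13232600 at ZT17 and ZT23, and from 12073700 to 15736100 at ZT5 and ZT11. Distal Hox sums averaged 154 ± 171, 351 ± 181, 235 ± 129 and 279 ± 181 CPM at ZT5, ZT11, ZT17 and ZT23 (SD, n = 8 each). With distal Hox genes as a covariate H2ac24 and H2ac18 stayed called. After H2ac24 and H2ac18, next by p stood H2bc18 (adjusted p 0.0530), H2ac25 (0.0863) and H4c14 (0.124). DESeq2 called each of these, among 740 genes in all.

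In SPF libraries H2ac24 was also higher early in the day, at 87.2 ± 16.9 CPM at ZT5 and 80.0 ± 33.1 CPM at ZT11, than late, at 52.8 ± 18.4 CPM at ZT17 and 53.4 ± 17.2 CPM at ZT23 (SD, n = 8 each; adjusted p 0.0312). H2ac18 had 14.1 ± 1.73, 12.6 ± 2.93, 14.5 ± 2.96 and 16.4 ± 2.99 CPM at ZT5, ZT11, ZT17 and ZT23 in SPF and was not called. Mki67, a protein of dividing cells, had 65.7 ± 18.3, 68.1 ± 20.2, 47.8 ± 15.5 and 46.3 ± 15.9 CPM at these times in SPF, and 55.3 ± 15.8, 61.0 ± 19.3, 45.3 ± 19.6 and 41.8 ± 8.05 CPM in GF libraries.

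**Figure D4:**
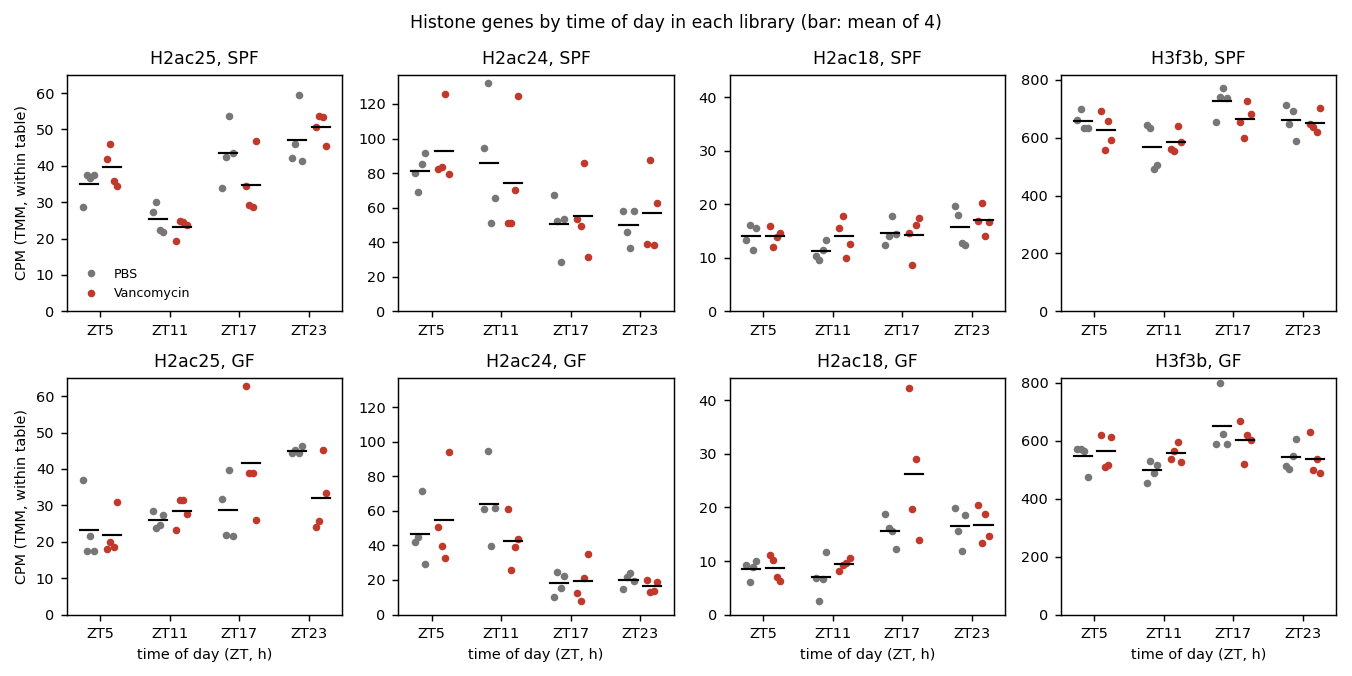
CPM of H2ac25, H2ac24, H2ac18 and H3f3b in each library (points; 4 per group) against time of day, with group means as bars, SPF above and GF below. H2ac24 drops from ZT11 to ZT17 in GF, from a mean of 53.3 to 18.6 CPM, where H2ac18 is higher, from 8.16 to 20.95 CPM.

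To see which histone transcripts followed proliferation between libraries of the same group, log2 expression was fitted on the log2 CPM of Mki67 within groups. In SPF libraries 4 of 51 histone genes were called, all with positive slopes, against 1.59% of all genes, 1.08% with positive and 0.508% with negative slopes. H2ac24 had a slope of 0.92 ± 0.12 (SE) per log2 unit of Mki67, with an edgeR adjusted p of 1.0e-04. H2ax, the variant phosphorylated at DNA breaks, had 0.50 ± 0.08 (SE; adjusted p 0.00125), H2az1 0.33 ± 0.07 (adjusted p 0.0109) and Macroh2a1 0.20 ± 0.05 (adjusted p 0.0429). Macroh2a1 kept its call in 14 of 32 fits that left out 1 library, and the other three in all 32.

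In GF libraries H2ac24 and H2ax were called, 3.92% of the 51 histone genes against 3.37% of all genes (2.66% with positive slopes), so the share was near that of all genes. H2ac24 had a slope of 1.03 ± 0.13 (SE; edgeR adjusted p 1.7e-05) and H2ax 0.39 ± 0.10 (adjusted p 0.0296). Without 1 of 5 libraries, replicate 2 of GF PBS at ZT11, replicate 1 of GF PBS at ZT17, and in GF vancomycin replicate 3 at ZT5 and replicates 2 and 4 at ZT17, H2ax was not called. Other H2A genes had negative slopes that were not called: H2ac19 -0.43 ± 0.12 (adjusted p 0.0688) and H2ac25 -0.27 ± 0.08 (adjusted p 0.106) in SPF, and H2ac18 -0.42 ± 0.19 (adjusted p 0.247) in GF. DESeq2 called 546 genes in SPF, H2ac19 and H2ac25 among them. In GF it called 1019 genes, among them H4c16, whose edgeR slope was -0.62 ± 0.19 (adjusted p 0.0732). Markers of several cell types moved with Mki67 as well. In SPF libraries B cell markers had positive slopes in 12 of 12 genes, 11 at an unadjusted p under 0.05, smooth muscle markers in 0 of 8, with 7 at that p, and enteric neuron and glia markers in 0 of 8, with 4. In GF libraries slopes were positive for 10 of 10 epithelial markers, 4 at that p, and for 0 of 12 B cell, 0 of 8 smooth muscle and 0 of 8 enteric neuron and glia markers. None of the genes of these 4 lists was called. With B cell markers as a covariate H2ac24, H2ax and H2az1 stayed called in SPF, and the part of the other cell types in the histone slopes was not tested.

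No linker histone gene was called for a slope on Mki67. That was 0 of 5 in each table, where 1.59% of all genes in SPF and 3.37% in GF were called. At an unadjusted p under 0.05 stood 1 of 5 in each, against 15.6% and 18.4% of all genes. With 5 genes, these counts do not set the class apart from other genes. H1f3 had a slope of 0.50 ± 0.23 (SE; adjusted p 0.295) and H1f0 0.19 ± 0.10 (adjusted p 0.365) in SPF, and H1f0 0.14 ± 0.07 (adjusted p 0.268) in GF libraries. Mki67 itself had 57.4 ± 19.7 CPM under PBS and 56.6 ± 19.9 CPM under vancomycin in SPF (SD, n = 16 each), a log2 difference of 0.00 ± 0.15 (SE). With Mki67 as a covariate, 7 histone genes were called for vancomycin in SPF, of 166 genes in all against 137 without it. Because Mki67 hardly differed between treatments, adding it could change the vancomycin estimates little, and the part of proliferation was not tested.

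**Figure D5:**
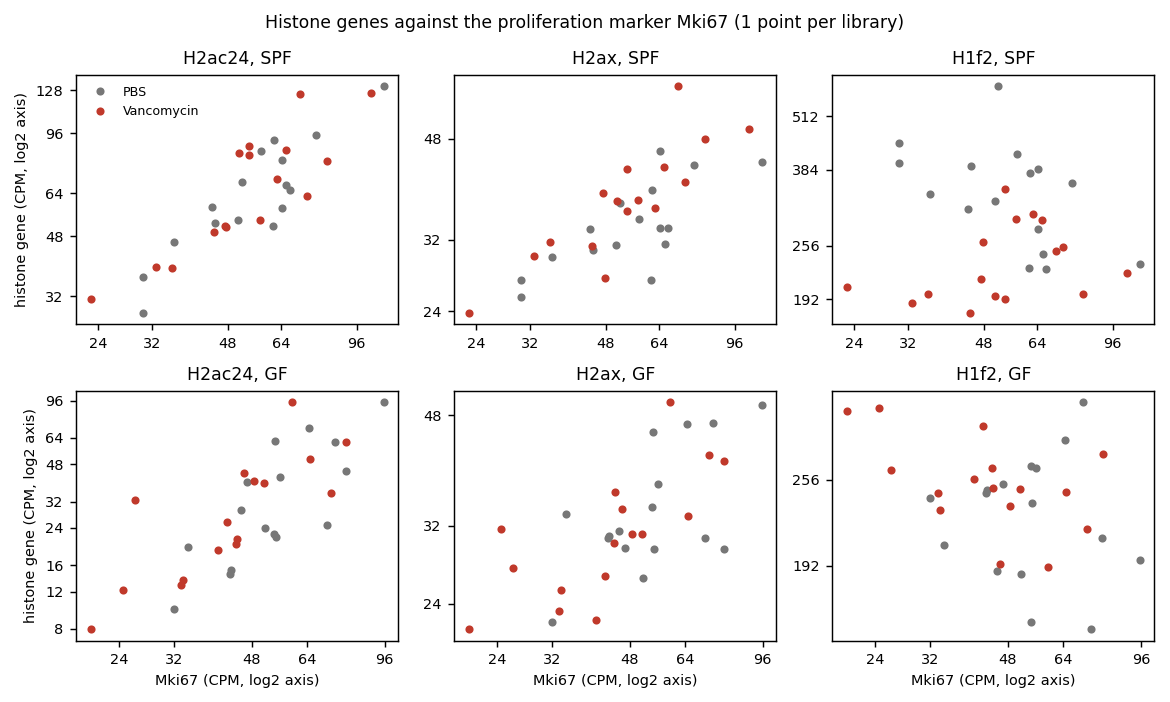
CPM of H2ac24, H2ax and H1f2 against CPM of Mki67, 1 point per library, both axes on a log2 scale, SPF above and GF below, grey for PBS and red for vancomycin. H2ac24 and H2ax lie higher where Mki67 is high, with slopes within groups of 0.92 and 0.50 in SPF. For H1f2 in SPF most vancomycin points lie below the PBS points, with overlap, and the slope was -0.05 ± 0.14 (SE).

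Genes that make and handle histones were read from lists. None of 15 genes of histone transcription and 3′ end processing, 25 histone chaperones and exchange factors, or 20 proliferation genes was called for vancomycin in SPF or GF by edgeR. At an unadjusted p under 0.05 stood 1, 2 and 0 of these in SPF, each below the 16.2% of all genes, and 0, 0 and 2 in GF, where 3.96% of all genes stood. In GF all 20 proliferation genes had negative estimates. Their sum had a median of 541 CPM under PBS and 432 CPM under vancomycin there, with overlapping ranges, and 526 and 511 CPM in SPF. Over all genes the Mki67 slope was called for 1.59% in SPF and 3.37% in GF. With Mki67, 3 of the 15 transcription and processing genes rose in SPF: Slbp, which binds the histone stem-loop, by 0.29 ± 0.05 (SE) per log2 unit, the S phase kinase Cdk2 by 0.34 ± 0.08 and the cell cycle factor E2f1 by 0.63 ± 0.14. In GF 1 of 15 rose, the cyclin gene Ccne2, by 0.66 ± 0.17 (SE).

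Among the 25 chaperone and exchange genes 4 rose with Mki67 in SPF and 4 in GF, the same genes in both. They were Chaf1a, a subunit of the replication-coupled assembly factor CAF-1, Asf1b and Nasp, carriers of H3 and H4, and Cenpa, the H3 variant of centromeres. Their SPF slopes were 0.90 ± 0.14, 1.15 ± 0.25, 0.33 ± 0.06 and 0.84 ± 0.15 (SE), and their GF slopes 0.59 ± 0.11, 1.28 ± 0.24, 0.24 ± 0.07 and 0.93 ± 0.12 (SE). Ubn2, of the H3.3 assembly complex, fell with Mki67 in GF by 0.78 ± 0.22 (SE). Of the 19 other proliferation genes 14 rose with Mki67 in SPF and 16 in GF, Top2a with slopes of 0.84 ± 0.09 and 0.98 ± 0.08 (SE) and Ccna2 with 1.05 ± 0.11 and 1.23 ± 0.11 (SE). With time of day in SPF, 1 of 15 (E2f1), 5 of 25 (Ino80, Cenpa, Znhit1, Nasp and Rbbp4) and 12 of 20 were called, the last led by Mcm5, Rrm2, Pcna, Cdc20 and Rrm1. With 21.1% of all genes called for time, the first list lay below that share and the second near it. In GF 0 of each list were called for time, with 2, 6 and 14 at an unadjusted p under 0.05, where 15.7% of all genes stood.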

How the data were processed

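Each library measured poly(A)-selected RNA of whole colon, sequenced as single-end reads of 75 cycles from 1000 ng of total RNA, per the labels' protocols. Per the submitters' processing notes, reads were handled with Trim Galore 0.6.2, cutadapt 3.5 and Salmon on GRCm39. Values the authors deposited, 1 table per colony, were taken to be estimated counts, since they are not whole and library totals differ; the file names say normalized, by a step the sources used here do not name. They were rounded, and 0 columns of other samples were present.

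Genes with at least 10 counts in at least 4 libraries were tested (16938 in SPF, 16951 in GF, 16604 in both). edgeR 4.0.16 in R 4.3.3 (TMM, quasi-likelihood test, 8 group means per table, Benjamini-Hochberg over all genes, threshold 0.05, two-sided) gave the vancomycin effect as the mean over 4 times of the difference within a time. Time and interaction were F tests of 3 contrasts. SE is the log2 change over the root of F. Alternatives were RLE factors, DESeq2 1.42.0, no count filter, a replicate block, marker covariates, and each library or time left out. The script was tested on simulated data. Libraries were not paired by replicate number, since the labels do not say that a number pairs animals. Deviations of same-numbered libraries correlated by 0.029 on average in SPF (-0.295 to 0.488) and -0.034 in GF (-0.541 to 0.549). Differently numbered ones correlated by -0.0096 and 0.011 on average. Such small means do not exclude pairing.

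Members and lists were chosen with earlier results of these data known. Named were called members, the 5 per class with the highest mean CPM (a choice of genes, not an order of expression), the 5 smallest time p-values and Mki67 slope p-values, and up to 5 called list genes.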

Additional observations from a re-analysis of the deposited data

Results flagged for a closer look

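In groups of 4 libraries, 1 library stood far from the other 3 in 10 of 160 group values examined, 48 of class sums and 112 of the 7 histone genes called for vancomycin in SPF. Chance flags about 1 in 20 such values. In SPF vancomycin at ZT23, replicate 4 was high for the linker sum, at 572 CPM against 444 to 464 CPM, and for H1f2, at 255 CPM against 188 to 197 CPM. At ZT5 in SPF vancomycin, replicate 1 was high for H1f2, at 346 CPM, and replicate 4 low for H4c18, at 2.63 CPM. In SPF PBS at ZT11, replicate 1 was high for H1f2, at 358 CPM, and for H2bc6, at 6.94 CPM. In SPF PBS at ZT17, replicate 1 was low for H4c4, at 0.701 CPM. In GF colon H1f0 was high in replicate 4 of PBS at ZT23, at 295 CPM, and in replicate 2 of PBS at ZT11, at 254 CPM. H4c18 was at 0 CPM in replicate 3 of GF vancomycin at ZT11, where the other 3 libraries had 2.53 to 3.05 CPM.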

How the results depend on the processing

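Of 80 counts of called histone genes under another setting, 67 stayed within 1.5 times of the reported count. Many of these counts were 0 in both fits, so the total does not measure how stable the calls were. The vancomycin estimates of the 7 called genes and the called Mki67 slopes kept their sign under each alternative run for them. For vancomycin in SPF the 7 became 2 with T and NK cell markers as a covariate, 0 with epithelial markers, 0 without ZT5, 4 without ZT17 and 1 without ZT23; these settings, smooth muscle and Mki67 as covariates were chosen after seeing the data. Fits without 1 library called 4 to 8. The count of 4 came without replicate 1 of SPF PBS at ZT11 or, in SPF vancomycin, replicate 4 at ZT5 or replicate 1 at ZT23, and H4c3 joined without replicate 4 at ZT23. At single times in SPF the count of 0 became 4 by DESeq2 and 1 with B cell markers (H1f3 at ZT23), and 0 to 1 without a library (1 without replicate 4 of PBS or replicate 1 of vancomycin at ZT5, or replicate 3 of vancomycin at ZT11). For the interaction in SPF it became 1 by DESeq2, and for the difference between colonies 2 by DESeq2 and 1 with distal Hox genes, with 0 to 1 without a library. Time of day in SPF gave 4 genes with distal Hox genes and 5 with smooth muscle markers, and 7 to 12 without a library. Time of day in GF gave 5 by DESeq2 and 2 to 4 without a library. Mki67 slopes gave 3 to 5 in SPF and 1 to 3 in GF without a library. The remaining counts without a library were 0 in each fit (vancomycin, interaction and single times in GF, interaction in SPF). The causes were not tested.

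With the replicate block 6 histone genes were called for vancomycin in SPF, with H2bc6 lost (adjusted p 0.0571), and 9 for time in SPF. Of 112 same-numbered pairs, 31 in SPF and 33 in GF correlated over 0.1, a count not made for differently numbered pairs. Over all genes, vancomycin in SPF was called for 137 by edgeR, 493 by DESeq2 and 80 without the count filter. DESeq2 also called more genes than edgeR at single times and for the interaction in SPF. The same held for the difference between colonies and for time of day in GF. H4c4, H4c18, H2bc6, H1f3 and H1f4 have medians from 0.747 (H4c4 under vancomycin) to 8.38 CPM (H1f3 under PBS) in SPF, which limits their precision.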
